A study of Mus musculus with 39 samples.

Results

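The Hox genes are the homeobox transcription factor genes of 4 chromosomal clusters. They were taken as every symbol of the 3 tissue tables that reads Hoxa, Hoxb, Hoxc or Hoxd followed by a number alone, which gave 39 of the 34574 entries with a gene name. On the mouse genome build GRCm38, in the GENCODE annotation, the 11 HoxA genes lie on chromosome 6, the 10 HoxB genes on chromosome 11 between 96194316 and 96368256, the 9 HoxC genes on chromosome 15 between 102921103 and 103036852, and the 9 HoxD genes on chromosome 2 between 74668310 and 74765142. Total RNA was sequenced from the colon, the ileum and a sample labelled duodenum/jejunum of 13 inbred mice (6 BALB/cJ, 7 C57BL/6J), with 1 library per tissue and mouse. The 39 libraries thus fall into 6 groups of 6 or 7, and the labels name no treatment, engineered allele, age or sex. Levels are in TPM, a transcript level scaled to length and to the library total. TPM does not retain read numbers, depth is therefore unknown, and the error given is the spread between mice. Each library summed to between 979558 and 996230 TPM, alike in the 3 tissue tables.

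Within each cluster the genes stand in a fixed order, numbered from the 3′ end, and genes that share a number in different clusters form a paralog group descended from 1 ancestral gene. As background, low-numbered genes are expressed from further forward along the body axis of the embryo and high-numbered genes only towards the tail, a relation called collinearity. In the gut tube this code helps to set the identity of its regions, largely through the mesoderm that forms muscle and connective tissue, and in the hindgut also in the epithelium. Hox proteins bind DNA together with cofactors of the Pbx and Meis families, and Polycomb proteins keep the genes silent where they are not used.

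Markers of tissue identity fitted the labels with an exception among the libraries of 1 mouse. The library labelled ileum of C57BL/6J mouse 2 held 22.1 TPM of Fabp6, the ileal bile acid binding protein, against at least 3766 TPM in every other ileum library, and 51.2 TPM of Tmprss15, the duodenal enteropeptidase. The library labelled duodenum/jejunum of the same mouse held 6111 TPM of Fabp6, against at most 95.97 TPM in the others, together with 39.2 TPM of Tmprss15. It carried markers of both ends of the small intestine, and results on the small intestine are given with and without these 2 libraries where they differ.

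Smooth muscle, stromal and nerve markers were also unequal between the tissues. The summed level of 12 smooth muscle genes had a median of 4651 TPM in BALB/cJ colon and 5233 TPM in C57BL/6J colon, against 1466 and 1432 TPM in ileum and 755.6 and 1088 TPM in duodenum/jejunum, in the same order of strains. All 12 were called higher in colon than in ileum and than in duodenum/jejunum, as were all 11 genes of enteric neurons and glia. Over all genes tested 46.5% and 55.4% were called higher in these contrasts. The summed level of 10 epithelial genes had medians between 8563 and 12703 TPM in the 6 groups. In such bulk samples fewer cells of a type and less RNA per cell cannot be told apart, and the part of these markers in the Hox differences was not tested beyond the fit with a smooth muscle score given below.

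The colon carried far more Hox RNA than either part of the small intestine. The 39 genes together summed to a median of 391.7 TPM in BALB/cJ colon and 387.1 TPM in C57BL/6J colon, against 53.97 and 44.09 TPM in ileum and 24.23 and 28.06 TPM in duodenum/jejunum. Between 23 and 27 Hox genes reached 1 TPM in a colon library, 4 to 20 in an ileum library and 6 to 15 in a duodenum/jejunum library. The 4 was the library labelled ileum of C57BL/6J mouse 2, and the other ileum libraries had 14 to 20. The makeup differed as well as the amount. The 16 genes of paralog groups 9 to 13 held between 61.98% and 79.8% of Hox TPM in every colon library, between 7.26% and 15.96% in the ileum libraries and between 4.51% and 16.2% in the duodenum/jejunum libraries. Without C57BL/6J mouse 2 the highest share in duodenum/jejunum was 9.43%. The heatmap by library of the 32 genes that reached a mean of 1 TPM in a group shows this as a bright colon block at the bottom of HoxA, HoxB and HoxD.

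**Figure D1:**
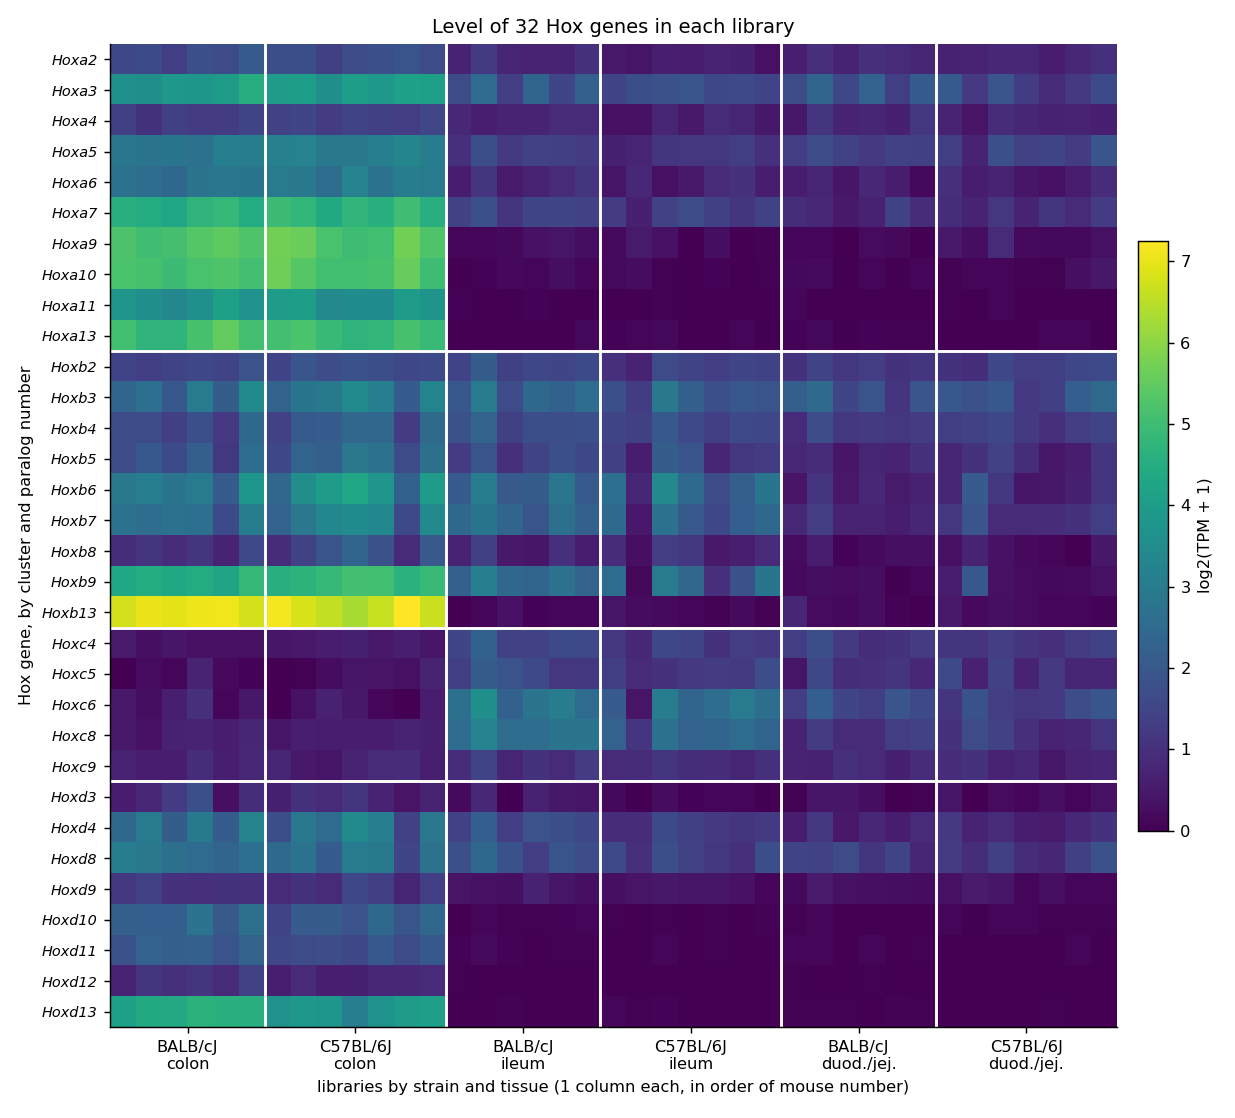
Level of each of the 32 Hox genes with a mean of at least 1 TPM in a group (rows, by cluster and paralog number) in each of the 39 libraries (columns, by tissue and strain), coloured by log2(TPM + 1). Hoxb13, Hoxa9, Hoxa10, Hoxa13 and Hoxd13 are bright in colon and dark in the small intestine, while Hoxc6 and Hoxc8 are brightest in ileum.

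Across tissues, 29 Hox genes reached 1 TPM in 6 or more libraries and were tested with limma on log2(TPM + 1), with p adjusted by the Benjamini-Hochberg method over 17126 genes. A gene with an adjusted p under 0.05 is called. In colon against ileum, 23 of the 29 were called higher, beside 46.5% of all genes tested, and 4 were called lower, beside 19.1%. The colon and ileum libraries did not overlap for 16 members higher in colon, beside 12.5% of all genes, and 3 lower, beside 5.17%. In colon against duodenum/jejunum, 25 were called higher, beside 55.4% of all genes, and 4 lower, beside 17.5%, and the libraries did not overlap for 17 higher, beside 21.7%, and 2 lower, beside 5.59%. Without C57BL/6J mouse 2, Hoxc6 joined the members without overlap lower against ileum. Hoxb7 and Hoxb8 then joined those higher against duodenum/jejunum. The shares over all genes are not given for that setting. The median change of the tested members was 1.00 on the log2 scale in colon against ileum and 1.75 in colon against duodenum/jejunum, where the medians over all genes tested were 0.17 and 0.28. Scaling that removes this shift of all genes left 22 and 24 members called higher and 4 and 4 called lower, beside 5393 higher and 5251 lower calls over all genes in colon against ileum and 5762 and 5902 in colon against duodenum/jejunum. Of the 29, 9 passed the filter through colon libraries alone and 4 through small intestine libraries alone, so these 13 had to differ, and the counts are a description.

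The colon-restricted genes were those of paralog groups 9 to 13 in HoxA, Hoxb13 and the genes Hoxd10 to Hoxd13. Those tested passed the filter through colon libraries alone and had to differ. The adjusted p given for them below are thus a description, not support for a difference. Hoxb13, the last gene of its cluster and, as background, a gene known from hindgut, tail and prostate, was the most abundant Hox transcript of the colon. It had 78.0, 112.0 and 151.7 TPM as lowest, median and highest of the 13 colon libraries, against 0, 0.0822 and 0.323 TPM in ileum and 0, 0.129 and 0.715 TPM in duodenum/jejunum. The colon libraries lay far above all others, and the difference of log2(TPM + 1) was 6.72 against ileum (SE 0.08, limma adjusted p = 9.0e-39) and 6.64 against duodenum/jejunum (SE 0.08, adjusted p = 1.4e-38). Genes of prostate and seminal vesicle, 5 listed, summed to at most 0.659 TPM in any library.

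The 5′ genes of HoxA, which pattern hindgut, limb and urogenital tract in the embryo, came next in level. Hoxa9 had 31.3, 36.9 and 51.3 TPM as lowest, median and highest in colon, against 0, 0.129 and 0.434 TPM in ileum and 0, 0.124 and 0.841 TPM in duodenum/jejunum. Hoxa10 had 30.3, 34.6 and 49.4 TPM in colon, against 0, 0.0564 and 0.204 TPM in ileum and 0, 0.0719 and 0.384 TPM in duodenum/jejunum. In both genes every colon library stood far above every small intestine library. Hoxa13, whose loss disturbs hindgut formation in mice, had 25.3, 32.3 and 44.2 TPM in colon and at most 0.111 TPM in ileum and 0.119 TPM in duodenum/jejunum. Hoxa11 had 9.30, 12.1 and 16.5 TPM in colon and was listed at 0 in 10 of 13 ileum and 10 of 13 duodenum/jejunum libraries. The differences of log2(TPM + 1) against ileum ranged from 3.71 for Hoxa11 to 5.10 for Hoxa10, with standard errors of at most 0.08 and limma adjusted p of at most 2.6e-34.

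The 5′ genes of HoxD showed the same restriction at lower levels. Hoxd13, the last gene of its cluster, had 7.65, 16.2 and 24.3 TPM as lowest, median and highest in colon, and at most 0.0651 TPM in ileum and 0.0407 TPM in duodenum/jejunum. Hoxd10 had 1.73, 3.46 and 5.81 TPM in colon and Hoxd11 had 1.91, 2.62 and 3.91 TPM, and neither passed 0.126 TPM in the small intestine. Hoxd12 had 0.522, 0.809 and 1.65 TPM in colon and was listed at 0 in 12 of 13 ileum and 11 of 13 duodenum/jejunum libraries, and was too low to be tested. Within the colon, the TPM of Hoxd13 at the end of the cluster was above that of its neighbours Hoxd10, Hoxd11 and Hoxd12. The colon minus ileum difference of log2(TPM + 1) was 4.09 for Hoxd13 (SE 0.07, limma adjusted p = 4.0e-35), 2.14 for Hoxd10 and 1.87 for Hoxd11. For these genes of groups 10 to 13 the ileum and duodenum/jejunum libraries overlapped, and ileum against duodenum/jejunum was not called for any of those tested.

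**Figure D2:**
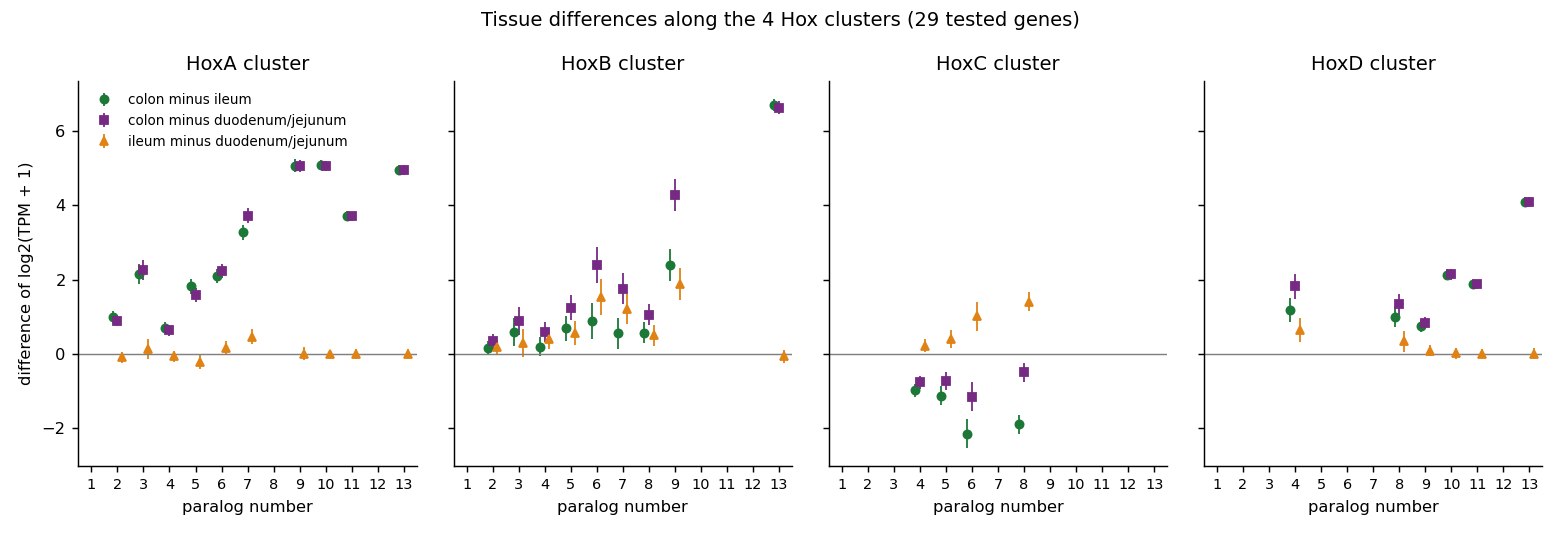
Difference of log2(TPM + 1) between tissues for the 29 tested Hox genes, by cluster and paralog number, with 95% intervals of the limma fit. Colon minus ileum and colon minus duodenum/jejunum lie close together and are largest at the high-numbered end of HoxA, HoxB and HoxD, reaching 6.72 for Hoxb13, while HoxC is below 0 and ileum minus duodenum/jejunum departs from 0 mainly in the middle of HoxB and in HoxC.

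The 250 bases before the RefSeq start are shown for the last gene of HoxA and of HoxD, which reached at most 0.119 and 0.0651 TPM outside the colon, and for Hoxb8, a mid-cluster gene that was graded along the gut. They come from RefSeq on GRCm38.p6. For description, 3 motifs were searched on both strands, TTTATG (caudal type), TGATTNAT (Pbx-Hox type) and CTCGTAAA (posterior Hox type), and hits are in capitals.
Hoxa13, chr6:52260881-52261130, minus strand: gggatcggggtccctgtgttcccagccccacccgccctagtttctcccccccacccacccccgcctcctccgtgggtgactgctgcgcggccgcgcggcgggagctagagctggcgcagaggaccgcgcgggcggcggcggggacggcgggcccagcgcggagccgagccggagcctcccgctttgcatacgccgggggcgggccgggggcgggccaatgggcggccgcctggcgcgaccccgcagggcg
Hoxd13, chr2:74667975-74668224, plus strand: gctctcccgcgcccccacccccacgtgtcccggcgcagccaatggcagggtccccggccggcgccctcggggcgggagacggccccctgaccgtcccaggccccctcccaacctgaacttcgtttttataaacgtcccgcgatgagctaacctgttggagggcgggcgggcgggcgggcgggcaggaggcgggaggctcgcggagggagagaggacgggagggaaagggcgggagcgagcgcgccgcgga
Hoxb8, chr11:96281655-96281904, plus strand: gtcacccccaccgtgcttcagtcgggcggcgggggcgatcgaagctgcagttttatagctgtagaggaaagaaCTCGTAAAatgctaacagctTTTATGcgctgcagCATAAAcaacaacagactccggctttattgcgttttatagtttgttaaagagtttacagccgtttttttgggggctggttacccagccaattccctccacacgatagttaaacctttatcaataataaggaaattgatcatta
The Hoxa13 and Hoxd13 windows held 35 and 31 CpG dinucleotides, where the median over 32851 such windows of the genome was 6 and that over the 24 Hox windows 12.5, from 2 to 35. Neither the Hoxa13 nor the Hoxd13 window held any of the 3 motifs. The Hoxb8 window held 12 CpG, TTTATG once on each strand and 1 CTCGTAAA. TTTATG occurred in 10.8% of all windows, TGATTNAT in 2.82% and CTCGTAAA in 0.11%. Among the 24 windows that matched 22 of the 39 Hox genes, 5 held TTTATG, 2 held TGATTNAT and 1 held CTCGTAAA. The hits in the Hoxb8 window do not overlap, and a match is a run of letters, not a measured site.

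The 3′ and middle genes of HoxA were present in all 3 tissues and higher in colon. Hoxa3, a gene of the early foregut and pharynx, had 11.1, 14.5 and 21.8 TPM as lowest, median and highest in colon, against 1.51, 2.20 and 4.84 TPM in ileum and 0.882, 2.07 and 4.12 TPM in duodenum/jejunum. Hoxa5, which is known from lung and gut mesenchyme, had 5.52, 7.27 and 8.86 TPM in colon, against 0.569, 1.22 and 2.34 TPM in ileum and 0.623, 1.68 and 2.77 TPM in duodenum/jejunum. Hoxa7 had 18.5, 23.3 and 31.4 TPM in colon, against 0.5682, 1.66 and 2.44 TPM in ileum and 0.418, 0.911 and 1.69 TPM in duodenum/jejunum. In each of these genes the lowest colon library stood above the highest small intestine library. Hoxa2, Hoxa4 and Hoxa6 had medians of 2.20, 1.59 and 6.05 TPM in colon, against 0.619, 0.642 and 0.618 TPM in ileum and 0.759, 0.629 and 0.499 TPM in duodenum/jejunum. Of these 3 genes Hoxa4 alone overlapped, in colon against duodenum/jejunum.

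The ratio of mean TPM in colon over ileum was 3.56 for Hoxa2, 5.70 for Hoxa3, 2.67 for Hoxa4, 5.47 for Hoxa5, 9.01 for Hoxa6 and 15.2 for Hoxa7. A read-through gene model, Gm28308, spans Hoxa2 to Hoxa6, as the annotated Hoxa3 spans Hoxa4 to Hoxa6, and had medians of 5.99 TPM in BALB/cJ colon and 8.44 TPM in C57BL/6J colon, against at most 1.47 TPM in any small intestine library. The levels of Hoxa2 to Hoxa6 are uncertain to the extent that reads were shared among them.

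The middle genes of HoxB, Hoxb5 to Hoxb9, were called in both steps, higher in colon than in ileum and higher in ileum than in duodenum/jejunum, as was Hoxa7 in HoxA. Hoxb9 had 17.9, 23.8 and 32.99 TPM as lowest, median and highest in colon, against 0.106, 4.23 and 7.72 TPM in ileum and 0, 0.165 and 2.99 TPM in duodenum/jejunum. Both extreme small intestine values, 0.106 TPM in ileum and 2.99 TPM in duodenum/jejunum, belonged to C57BL/6J mouse 2, and without it the lowest C57BL/6J ileum library held 1.01 TPM and the highest C57BL/6J duodenum/jejunum library 0.477 TPM. The other genes of group 9 had lower ileal medians, 0.129 TPM for Hoxa9, 0.892 TPM for Hoxc9 and 0.300 TPM for Hoxd9. The difference of log2(TPM + 1) was 2.38 in colon against ileum (SE 0.21, limma adjusted p = 2.2e-12) and 1.89 in ileum against duodenum/jejunum (SE 0.21, adjusted p = 9.4e-09).

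Hoxb6 had 3.34, 7.58 and 18.8 TPM as lowest, median and highest in colon, against 0.722, 3.56 and 9.63 TPM in ileum and 0.311, 0.586 and 3.26 TPM in duodenum/jejunum. Hoxb7 had 2.01, 5.66 and 10.3 TPM in colon, against 0.406, 4.20 and 6.07 TPM in ileum and 0.486, 0.875 and 2.80 TPM in duodenum/jejunum. Colon and ileum overlapped widely in both, and the ileum stood apart from the duodenum/jejunum once C57BL/6J mouse 2 was left out. Hoxb8 had medians of 1.18 TPM in colon, 0.611 TPM in ileum and 0.230 TPM in duodenum/jejunum, and Hoxb5 of 3.57, 1.57 and 0.768 TPM. Both of these overlapped between neighbouring tissues.

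Towards the 3′ end of HoxB, colon and ileum lay closer for Hoxb2 and Hoxb4 than for Hoxb5 to Hoxb9, but not for Hoxb3. Hoxb3 had medians of 6.02 TPM in colon, 2.95 TPM in ileum and 2.79 TPM in duodenum/jejunum, and Hoxb4 of 2.39, 2.02 and 1.46 TPM. Hoxb2, an early hindbrain gene, had medians of 1.93, 1.81 and 1.51 TPM. Colon against ileum was not called for Hoxb2 (difference 0.15, 95% interval -0.05 to 0.35, limma adjusted p = 0.172) or Hoxb4 (0.19, -0.07 to 0.45, adjusted p = 0.203). Hoxb3 was called higher in colon than in ileum (0.58, SE 0.19, limma adjusted p = 0.00676). Against duodenum/jejunum, Hoxb2, Hoxb3 and Hoxb4 were each called higher in colon (0.33, 0.88 and 0.58, limma adjusted p of at most 0.00272). Hoxb1 lay between 0.309 and 1.12 TPM over all libraries and was not tested.

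The fit with a smooth muscle score ended several HoxB calls. With the mean log2 level of the 12 smooth muscle genes as a covariate, colon against ileum was no longer called for Hoxb3, Hoxb5, Hoxb6, Hoxb7 and Hoxb8, with limma adjusted p between 0.423 and 0.991, and Hoxb2 turned to lower in colon (difference -0.47, SE 0.13, adjusted p = 0.003). The count of members called higher in colon was 18 of 29 against ileum and 18 of 29 against duodenum/jejunum in that fit. Over all 17126 genes 3542 and 3397 were called higher in it, against 7963 and 9492 without the score. Against duodenum/jejunum the fit with the score ended the calls of Hoxa4, Hoxb3, Hoxb4, Hoxb5, Hoxb7 and Hoxb8. The summed smooth muscle level did not overlap between colon, at 3919 TPM or more, and the small intestine, at 2012 TPM or less.

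**Figure D3:**
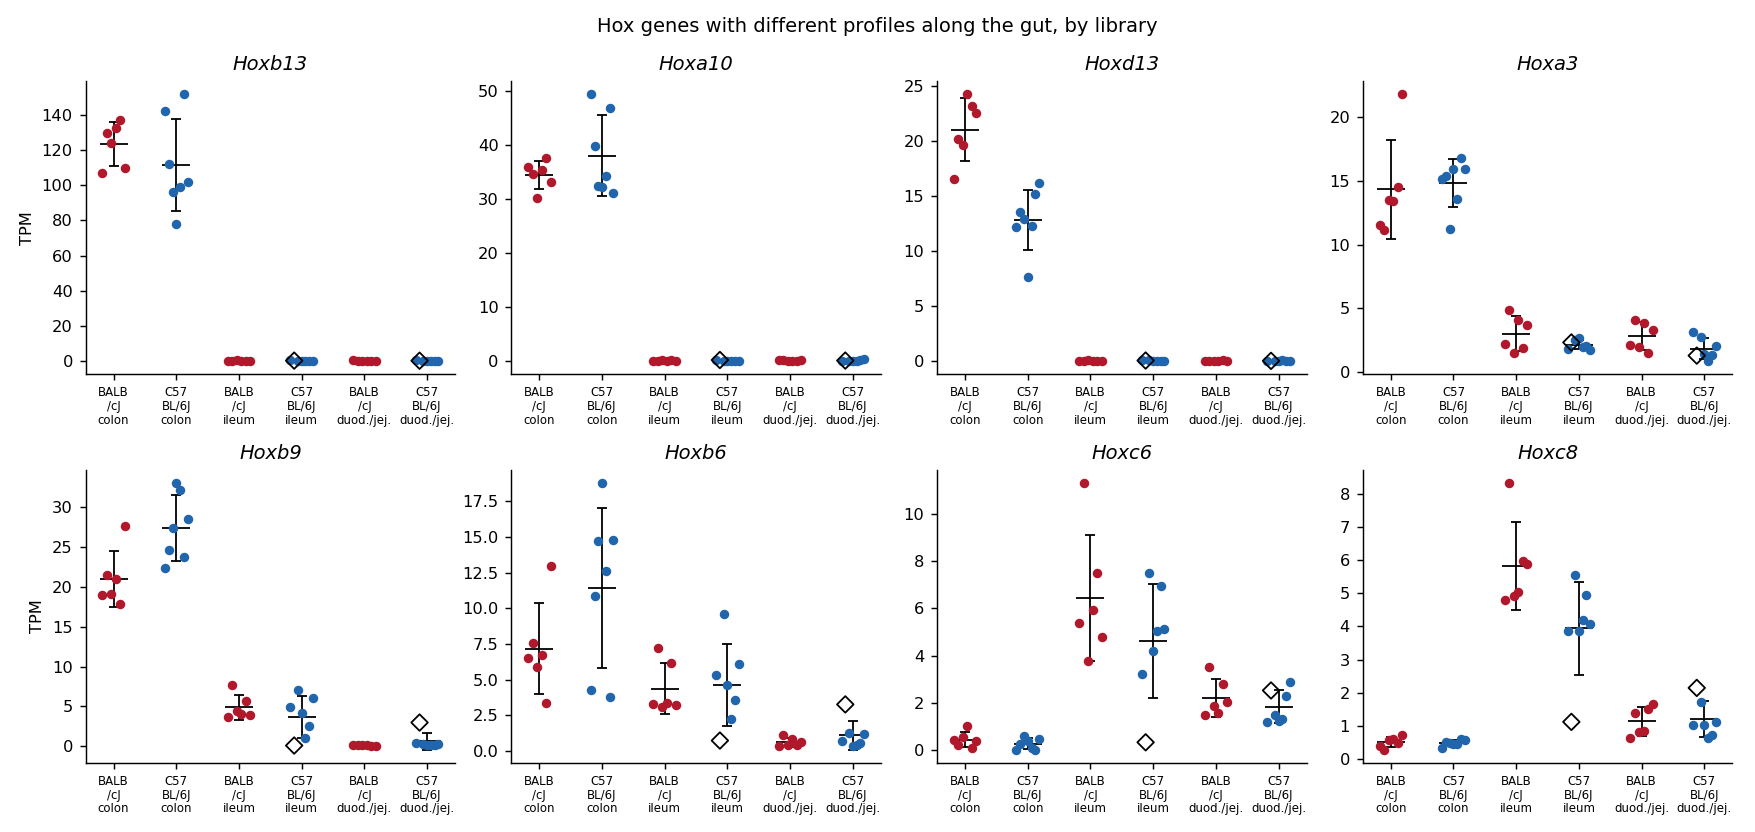
TPM by library of 8 Hox genes in the 6 groups of strain and tissue, with mean and SD. Open diamonds are the libraries labelled ileum and duodenum/jejunum of C57BL/6J mouse 2. Hoxb13, Hoxa10 and Hoxd13 are near 0 outside the colon, Hoxb9 and Hoxb6 step down from colon to ileum to duodenum/jejunum, and Hoxc6 and Hoxc8 peak in ileum.

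HoxC ran the other way, with its expressed genes lower in colon than in the small intestine and highest in ileum. Hoxc8, a gene of the thoracic and lumbar trunk, had 0.284, 0.477 and 0.726 TPM as lowest, median and highest in colon, against 1.12, 4.91 and 8.31 TPM in ileum and 0.627, 1.03 and 2.15 TPM in duodenum/jejunum. Hoxc6 had 0, 0.372 and 0.998 TPM in colon, against 0.316, 5.12 and 11.3 TPM in ileum and 1.17, 1.85 and 3.53 TPM in duodenum/jejunum. The lowest ileum value of both was that of C57BL/6J mouse 2, and without it the lowest C57BL/6J ileum libraries held 3.85 TPM of Hoxc8 and 3.20 TPM of Hoxc6, above every colon library. The difference of log2(TPM + 1) in colon against ileum was -1.91 for Hoxc8 (SE 0.12, limma adjusted p = 2.7e-16) and -2.17 for Hoxc6 (SE 0.19, adjusted p = 1.7e-12). Both genes passed the filter through small intestine libraries alone, so they had to differ and these p are a description.

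Hoxc4 had medians of 0.363 TPM in colon, 1.71 TPM in ileum and 1.36 TPM in duodenum/jejunum, and Hoxc5 of 0.156, 1.40 and 0.913 TPM. The annotated Hoxc5 spans Hoxc6, Hoxc8 and Hoxc9, so how reads were divided among these genes is uncertain. All 4 genes were called lower in colon than in ileum and than in duodenum/jejunum, and no gene of the other 3 clusters was. Hoxc4 and Hoxc5, like Hoxc6 and Hoxc8, passed the filter through small intestine libraries alone. These 4 thus had to differ, and their calls in any fit are a description. With the smooth muscle score as a covariate these 4 remained the called HoxC genes, and Hoxb2 was the fifth gene called lower. Hoxc9 had medians of 0.629, 0.892 and 0.711 TPM in colon, ileum and duodenum/jejunum and was too low to be tested. In the colon, group 9 was therefore carried by Hoxa9 and Hoxb9, at median levels of 36.9 and 23.8 TPM, with Hoxd9 at 1.09 TPM and Hoxc9 at 0.629 TPM.

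Of the remaining HoxD genes, Hoxd4, Hoxd8 and Hoxd9 were called higher in colon than in ileum and than in duodenum/jejunum, and Hoxd4 alone was called higher in ileum than in duodenum/jejunum. Hoxd4 had 1.68, 6.27 and 9.84 TPM as lowest, median and highest in colon, against 0.889, 1.62 and 3.50 TPM in ileum and 0.424, 0.774 and 1.30 TPM in duodenum/jejunum. Hoxd8 had 1.85, 5.36 and 7.27 TPM in colon, against 0.965, 2.31 and 4.34 TPM in ileum and 0.706, 1.57 and 2.46 TPM in duodenum/jejunum. Both overlapped between colon and ileum in a few libraries, with differences of log2(TPM + 1) of 1.17 (SE 0.16, limma adjusted p = 7.3e-08) and 1.00 (SE 0.14, adjusted p = 1.1e-07). Hoxd9 did not overlap, with 0.679 to 1.92 TPM in colon, against 0.0941 to 0.600 TPM in ileum and 0.0884 to 0.439 TPM in duodenum/jejunum. Unlike Hoxd4 and Hoxd8, Hoxd9 passed the filter through colon libraries alone. It had to differ, so its colon calls and lack of overlap are a description. Hoxd3, which was not tested, ranged from 0.220 to 2.44 TPM in colon and reached at most 0.751 TPM in ileum and 0.368 TPM in duodenum/jejunum. Hoxd3 and Hoxd4 overlap each other and the read-through model Gm28230, which reached at most 0.949 TPM, so how reads were divided among them is uncertain.

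A mean of 1 TPM was reached in none of the 6 groups by 7 members, among them Hoxb1, Hoxc10, Hoxc11, Hoxc12, Hoxc13 and Hoxd1, and the highest value among them in any library was 1.12 TPM. Hoxc12 was listed at 0 in all libraries. Hoxc10, Hoxc11 and Hoxc13 reached at most 0.319, 0.149 and 0.0995 TPM, so the colon had no 5′ HoxC counterpart to the 5′ genes of the other clusters at these levels.

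Within the small intestine, 12 of the 29 tested Hox genes were called higher in ileum than in duodenum/jejunum, beside 32.1% of all genes, and 0 were called lower, beside 9.81%. At an unadjusted p under 0.05, 14 differed in either direction, beside 49.4% of all genes. The median change of the members was 0.18, where that of all genes was 0.12, and with scaling to the median gene 2859 genes were called higher and 3051 lower. The 12 were Hoxa7, Hoxb4 to Hoxb9, Hoxc4, Hoxc5, Hoxc6, Hoxc8 and Hoxd4, all of paralog groups 4 to 9. In the same contrast 10 of 12 smooth muscle genes and 9 of 10 fibroblast and stroma genes were called higher in ileum. With the smooth muscle score as a covariate 8 were called higher, beside 3197 of 17126 genes. Hoxb4, Hoxb5, Hoxc4 and Hoxc5 were not (limma adjusted p = 0.102, 0.0793, 0.463 and 0.105). Hoxa5 was called lower in ileum in that fit (-0.41, limma adjusted p = 2.0e-04), beside 1410 genes. With all libraries 0 members separated the 2 tissues without overlap in either direction, beside 0.105% of all genes higher and 0.0234% lower. Without C57BL/6J mouse 2, Hoxb6, Hoxb7, Hoxb9 and Hoxc8 were higher in every ileum than in every duodenum/jejunum library, beside 2.33% of all genes. The largest differences of log2(TPM + 1) were 1.89 for Hoxb9, 1.52 for Hoxb6 (SE 0.24, limma adjusted p = 4.3e-06) and 1.40 for Hoxc8 (SE 0.12, adjusted p = 7.0e-11).

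Hoxa5 and Hoxa2 went the other way under some settings. Hoxa5 was not called in the fit of all libraries (difference -0.23, SE 0.10, limma adjusted p = 0.0555) and was called lower in ileum without C57BL/6J mouse 2 (-0.27, adjusted p = 0.00971). Scaling to the median gene called both Hoxa5 and Hoxa2 lower. In C57BL/6J mice alone 3 Hox genes were called higher in ileum, beside 761 of 16237 genes. Once mouse 2 was left out 7 were, beside 2030 of 16133.

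Between the strains, few Hox genes differed. In the colon 25 Hox genes were tested, 2 were called higher in BALB/cJ, beside 14.5% of all 15769 genes, and 1 was called lower, beside 10.8%. In the ileum 1 of 16 was called higher, beside 17.2%, and 0 lower, beside 3.17%, with 5 at an unadjusted p under 0.05, beside 36.4%. In the ileum the median gene was 0.17 higher in BALB/cJ, and scaling that removes this called 942 genes higher and 882 lower. In duodenum/jejunum 0 of 9 were called higher, beside 4.70% of all genes, and 0 lower, beside 4.80%, and 0 reached an unadjusted p under 0.05. The median strain difference of the tested members was -0.11 in colon, where that of all genes was 0.02.

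Hoxd13 had the lowest adjusted p of the Hox genes in the colon. It had 16.5, 21.4 and 24.3 TPM as lowest, median and highest in BALB/cJ colon, against 7.65, 12.9 and 16.2 TPM in C57BL/6J colon. All 6 BALB/cJ colons lay above all 7 C57BL/6J colons, by a narrow gap, and the means were 21.05 and 12.9 TPM (log2 difference 0.69, SE 0.14, limma adjusted p = 0.00214). No overlap in this direction occurred in 6.49% of all genes. Hoxd11 had 2.47, 3.63 and 3.91 TPM in BALB/cJ colon, against 1.91, 2.19 and 3.02 TPM in C57BL/6J colon (log2 difference 0.37, SE 0.12, adjusted p = 0.0301). The groups of Hoxd11 overlapped. Hoxd12, which lies between these 2 genes in the cluster, averaged 1.07 TPM in BALB/cJ and 0.686 TPM in C57BL/6J colon and was not tested. Hoxd10, on the other side of Hoxd11, averaged 4.14 TPM in BALB/cJ and 3.17 TPM in C57BL/6J colon. It was not called (log2 difference 0.31, 95% interval -0.06 to 0.67, limma adjusted p = 0.217). By ratio of means Hoxb8 was further apart, at 1.14 TPM in BALB/cJ and 2.27 TPM in C57BL/6J colon, and was not called (log2 difference -0.55, SE 0.24, adjusted p = 0.114).

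Hoxb9 was the member called lower in BALB/cJ colon, with 17.9, 20.1 and 27.6 TPM as lowest, median and highest, against 22.3, 27.4 and 32.99 TPM in C57BL/6J colon. The groups overlapped, with a log2 difference of -0.37 (SE 0.11, limma adjusted p = 0.0239). The other posterior colon genes did not pass the test. Hoxb13 averaged 123.3 TPM in BALB/cJ and 111.5 TPM in C57BL/6J colon (log2 difference 0.17, 95% interval -0.11 to 0.46), and Hoxa13 32.5 and 30.5 TPM (0.07, -0.19 to 0.34). In the ileum Hoxd4 had 1.499, 2.14 and 3.50 TPM in BALB/cJ, against 0.889, 1.32 and 2.06 TPM in C57BL/6J (log2 difference 0.48, SE 0.16, adjusted p = 0.0441). It overlapped between the strains.

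**Figure D4:**
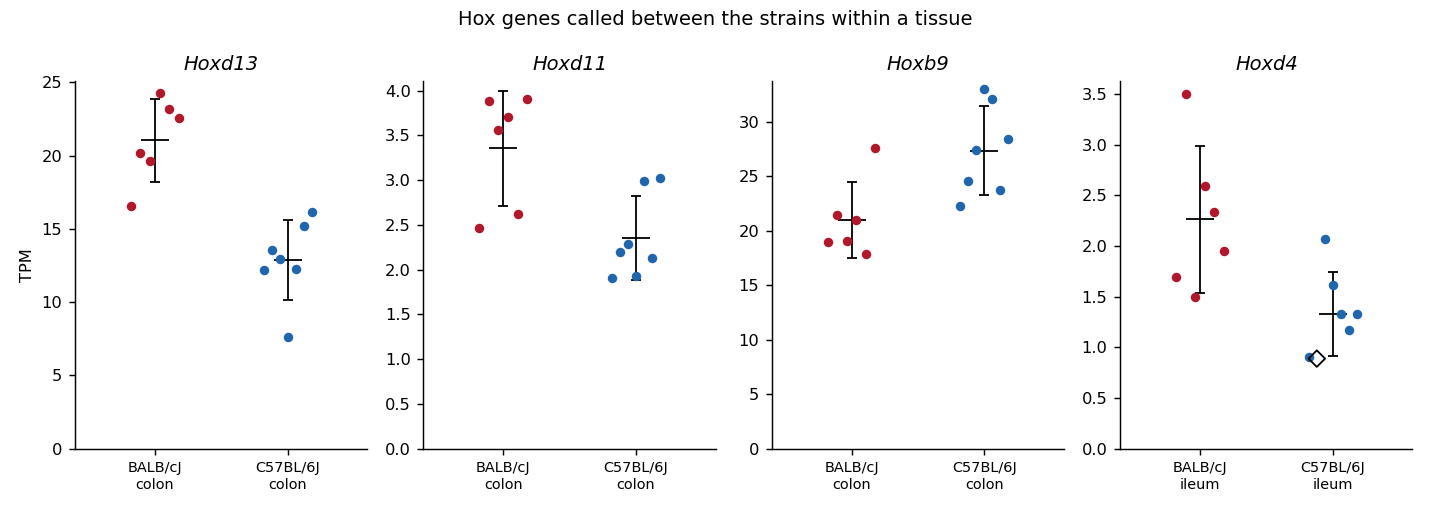
TPM by library of the 4 Hox genes called between the strains, with BALB/cJ left and C57BL/6J right, mean and SD. The open diamond is the library labelled ileum of C57BL/6J mouse 2. Hoxd13 is the gene whose strains do not overlap, at 16.5 to 24.3 TPM in BALB/cJ and 7.65 to 16.2 TPM in C57BL/6J colon.

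Marker genes of other cells differed between the strains in the same tissues. In the colon 7 of 10 fibroblast and stroma genes were called higher in BALB/cJ, beside 14.5% of all genes. Their sums were 1569 to 2737 TPM, against 1173 to 1951 TPM in C57BL/6J. In the same tissue 4 of 12 smooth muscle genes were called lower, beside 10.8%. Immune genes differed there too. Called higher in BALB/cJ colon were 8 of 8 B cell, 6 of 7 macrophage and dendritic cell and 4 of 6 tested T cell genes, and 0 were lower. The part of these cells in the Hox differences was not tested. In the ileum 8 of 10 fibroblast and stroma genes were called higher in BALB/cJ, beside 17.2% of all genes. So were 4 of 8 B cell genes and 4 of 6 endothelial genes in the ileum, with 0 and 1 called lower. The median gene was 0.17 higher there. The sums of the fibroblast and stroma genes were 1074 to 1909 TPM, against 216.4 to 840.5 TPM in C57BL/6J. With the mean log2 level of the fibroblast and stroma genes as a covariate, a fit added after the data were seen, Hoxd11 kept its call and the other 3 Hox genes lost theirs, with limma adjusted p of 0.0888 for Hoxd13, 0.876 for Hoxb9 and 0.511 for Hoxd4. With the smooth muscle score Hoxd11 was not called (adjusted p = 0.138). The ileal call of Hoxd4 also ended without C57BL/6J mouse 2 (limma adjusted p = 0.0637).

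The strain difference of Hoxd13 in colon also differed from that in the small intestine, where the gene was near 0 in both strains. The interaction was 0.70 on the log2 scale against ileum (SE 0.13, limma adjusted p = 6.8e-04) and 0.66 against duodenum/jejunum (SE 0.13, adjusted p = 0.00116). Hoxd13 passed the filter through colon libraries alone, so on this scale the interaction largely repeats the colon difference of 0.69. It was the 1 member called in each, beside 4.08% and 5.59% of all genes, and 0 were called for ileum against duodenum/jejunum, beside 3.92%, with 3 at an unadjusted p under 0.05, beside 24.1%. With a pseudocount of 0.1, which stretches values near 0, neither interaction of Hoxd13 was called (limma adjusted p = 0.0553 and 0.348), and Hoxc4 was the 1 member called in colon against ileum (interaction -1.07, adjusted p = 0.0281). With the replicate block, which ties the libraries of 1 mouse, Hoxc4 was also called in colon against ileum (interaction -0.56, adjusted p = 0.0331, against 0.0577 without it).

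The colon libraries also differed among themselves in the middle HoxB genes, a pattern seen in the values and given here with no test. Among C57BL/6J colons, mice 1 and 6 held 4.27 and 3.75 TPM of Hoxb6, against 10.9 to 18.8 TPM in the other 5. The same 2 colons held 142.0 and 151.7 TPM of Hoxb13, against 78.0 to 112.0 TPM in the other 5, and 49.4 and 46.8 TPM of Hoxa10, against 31.1 to 39.8 TPM. The other posterior genes did not all follow. Hoxb9 was at 22.3 and 23.8 TPM in mice 1 and 6, against 24.6 to 32.99 TPM in the other 5, Hoxd13 at 12.2 and 15.2 TPM, against 7.65 to 16.2 TPM, and the highest Hoxa13, 35.9 TPM, was in mouse 2. In BALB/cJ the lowest Hoxb6, 3.34 TPM, and the highest Hoxb13, 137.0 TPM, were both in mouse 5, and the highest Hoxb6, 12.98 TPM, was in mouse 6 with 110.0 TPM of Hoxb13. Slc10a2, the apical bile acid transporter of the ileum, was at 9.46 and 12.5 TPM in C57BL/6J mice 1 and 6, against 42.3 to 86.9 TPM in the others, and at its BALB/cJ lowest, 24.3 TPM, in mouse 5. Car1, a carbonic anhydrase of colon epithelium, was at 2513 and 2269 TPM in C57BL/6J mice 1 and 6, against 3639 to 5725 TPM in the others. Where along the colon each sample was cut is not given in the labels, and its part in these values was not tested.

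**Figure D5:**
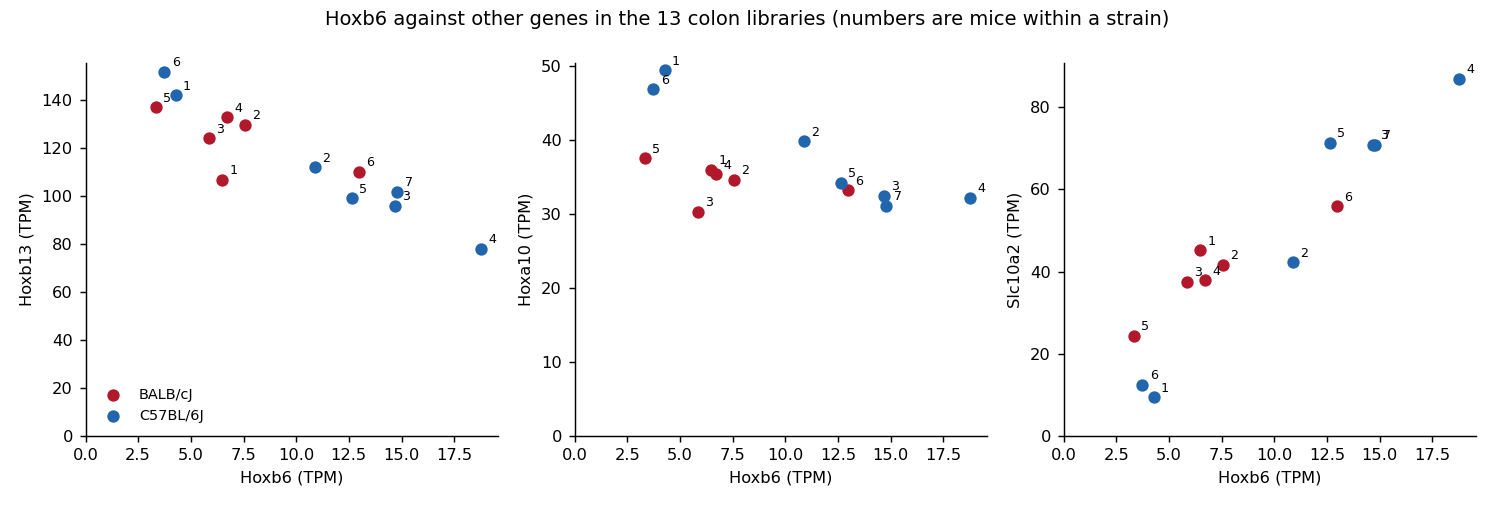
TPM of Hoxb6 (horizontal) against Hoxb13, Hoxa10 and Slc10a2 (vertical) in the 13 colon libraries, each point 1 mouse with its number within the strain. Colons with little Hoxb6, such as C57BL/6J mice 1 and 6 and BALB/cJ mouse 5, have the most Hoxb13 and the least Slc10a2.

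The TALE homeobox genes, whose Pbx, Meis and Pknox proteins bind DNA beside Hox proteins, were compared between the tissues. Of 9 tested, 8 were called higher and 1 lower in colon against ileum, and likewise in colon against duodenum/jejunum, with median changes of 0.46 and 0.74. Over all genes 46.5% and 55.4% were called higher, and the medians were 0.17 and 0.28. Pbx3 averaged 13.47 TPM in colon and 5.77 TPM in ileum (log2 difference 1.10, limma adjusted p = 1.9e-10). Pbx4 was the gene called lower, with means of 0.587 TPM in colon, 1.85 TPM in ileum and 1.80 TPM in duodenum/jejunum. It was also called lower in BALB/cJ ileum, at 0.165 to 1.12 TPM, against 1.82 to 4.40 TPM in C57BL/6J ileum (log2 difference -1.27, adjusted p = 1.0e-04).

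The caudal genes Cdx1 and Cdx2, which act upstream of Hox genes in the embryo and keep intestinal identity in the adult epithelium, followed different profiles. Cdx1 averaged 155.1 TPM in colon, 73.3 TPM in ileum and 44.6 TPM in duodenum/jejunum, and colon was called above ileum (log2 difference 1.07, limma adjusted p = 5.1e-12). Cdx2 averaged 88.7, 86.9 and 63.0 TPM and was called higher in colon and in ileum than in duodenum/jejunum. Both were called lower in BALB/cJ colon, with means of 133.3 against 173.8 TPM in C57BL/6J for Cdx1 and 77.4 against 98.4 TPM for Cdx2. Pdx1, the ParaHox gene of duodenum and pancreas, averaged 0.562 TPM in colon, 0.345 TPM in ileum and 8.23 TPM in duodenum/jejunum.

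Genes beside the clusters were compared with the Hox genes next to them. Ttll6, a tubulin glutamylase gene upstream of Hoxb13 on chromosome 11, averaged 12.4 TPM in colon, 0.0851 TPM in ileum and 0.0507 TPM in duodenum/jejunum (log2 difference 3.60 against ileum, limma adjusted p = 7.5e-34). With means this low outside the colon, Ttll6 could pass the filter only by its colon libraries. Its p is thus a description, not support for a difference. Evx2, a homeobox gene just beyond Hoxd13, averaged 0.864 TPM in colon and 0.0134 TPM in ileum and was listed at 0 in all C57BL/6J duodenum/jejunum libraries. Evx1, beyond Hoxa13, ranged from 0.253 to 1.01 TPM in the colon libraries and reached at most 0.0657 TPM elsewhere, and was not tested. Of 14 tested neighbours 9 were called higher, beside 46.5% of all genes, and 1 lower, beside 19.1%, in colon against ileum. In colon against duodenum/jejunum 12 were called higher, beside 55.4%, and 1 lower, beside 17.5%. The median changes were 0.44 and 0.47, beside 0.17 and 0.28 over all genes. Hibadh, an enzyme gene of valine breakdown beside HoxA, had means of 67.2 TPM in colon and 38.6 TPM in ileum (log2 difference 0.79, adjusted p = 2.9e-16). In the ileum 5 of 12 tested neighbours were called higher in BALB/cJ, beside 17.2% of all genes, where the median gene was 0.17 higher, with Mtx2, beside HoxD, at means of 65.7 against 54.3 TPM in C57BL/6J.

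Polycomb and trithorax genes showed no common direction in colon against ileum, with a median change of 0.05. Of 23, 5 were called higher, beside 46.5% of all genes, 5 lower, beside 19.1%, and 13 were not called. Against duodenum/jejunum 11 of 23 were called higher in colon, beside 55.4% of all genes, and 4 lower, beside 17.5%, which is near the background. Rnf2, the Polycomb ubiquitin ligase, averaged 25.8 TPM in colon and 15.9 TPM in ileum (log2 difference 0.67, limma adjusted p = 7.3e-11), Phc1 11.6 and 5.40 TPM, and Jarid2 44.3 and 65.2 TPM. Between the strains Cbx7, which reads the Polycomb mark, was called lower in BALB/cJ in all 3 tissues, with means of 8.002 against 17.3 TPM in C57BL/6J in colon, 8.10 against 15.2 TPM in ileum and 5.28 against 14.1 TPM in duodenum/jejunum. Transcripts antisense to or inside the clusters were not analysed here.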

How the data were processed

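The libraries were made from total RNA extracted with a PureLink kit and depleted of ribosomal RNA, per the labels' protocols, and the submitters' processing notes name kallisto 0.44.0 and the build GRCm38. The authors deposited 1 table per tissue of log2(TPM + 1) values for 34600 entries, of which 26 had names turned into dates and were left out. TPM is set within each library, so the 3 tables were compared without rescaling. For the strand setting of the counting, the sources used here state nothing. The tables held 0 columns of other samples.

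Values were turned back to TPM for levels, and tests were run on the deposited log2(TPM + 1) values, with a pseudocount of 1, in limma 3.58.1 under R 4.3.3 with a trend of variance on mean. The tissue fit took all 39 libraries with a mean per strain and tissue, averaged over strains, and the interactions. The strain fits took the 13 libraries of a tissue. A gene entered a fit once 6 of its libraries reached 1 TPM and was tested, 2-sided, with Benjamini-Hochberg adjustment over all of them at 0.05. A change in log2(TPM + 1) understates the change of low genes. The fits were tested on simulated data. Figures were drawn with matplotlib 3.10.9.

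Tissues of 1 mouse come from the same animal by the mouse label, and their deviations from group means correlated at a median of 0.15 over 39 pairs, from -0.16 to 0.38, with 28 pairs over 0.1. The Hox genes with a mean of at least 1 TPM in a group, 32 of 39, are named with values, and others by range. Some items are not reported here. Of the pathway and neighbour lists, called genes were named in order of adjusted p, at most 3 per direction and contrast, and genes named beyond these were picked after their values were seen. Members and lists were chosen with earlier results of these data known.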

Additional observations from a re-analysis of the deposited data

Results flagged for a closer look

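Single libraries far from the rest of their group were found for 13 of 107 groups of values looked at. Chance flags about 1 in 20 if values are normal and groups independent. TPM was used here without a log and the genes share libraries, so no excess over chance can be read from this. In the colon of BALB/cJ mouse 6, Hoxa3 was at 21.8 TPM (others 11.1 to 14.5), Hoxb2 at 2.62 TPM (1.53 to 1.93), Hoxb4 at 4.39 TPM (1.32 to 2.39) and Hoxb9 at 27.6 TPM (17.9 to 21.5). In the ileum of BALB/cJ mouse 2, Hoxb2 was at 3.38 TPM (others 1.59 to 2.10), Hoxb4 at 3.97 TPM (1.57 to 2.45), Hoxc4 at 3.76 TPM (1.67 to 2.07) and Hoxc8 at 8.31 TPM (4.78 to 5.97). In the ileum of C57BL/6J mouse 3, Hoxb3 was at 6.502 TPM (others 1.46 to 3.62) and Hoxb4 at 2.99 TPM (1.53 to 2.02).

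The other 3 were in libraries of C57BL/6J mouse 2 that went against their labels. Hoxc8 was at 1.12 TPM in the library labelled ileum (others 3.85 to 5.55), and in the library labelled duodenum/jejunum Hoxb6 was at 3.26 TPM (others 0.321 to 1.27) and Hoxb7 at 2.80 TPM (0.818 to 1.54).

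The interaction of strain and tissue was called for Hoxd13, at 0.70 on the log2 scale for colon against ileum and 0.66 for colon against duodenum/jejunum. The gene was near 0 in the small intestine of both strains, so these values largely repeat its colon difference of 0.69, and with a pseudocount of 0.1 neither was called (limma adjusted p = 0.0553 and 0.348).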

How the results depend on the processing

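Depth is unknown, so no counting error can be given, and values near 0 depend on the pseudocount. Colon calls of the posterior HoxA, HoxB and HoxD genes and of the 4 HoxC genes held in every alternative run. Of these genes only Hoxb9 passed the filter through both colon and small intestine libraries, so the others had to differ. With the replicate block, which ties the tissues of 1 mouse, 2 Hox genes had a called interaction for colon against ileum. In the strain fits the block used mouse numbers that mark different animals, and left 1 gene called higher in BALB/cJ colon, 0 lower, and 0 higher in ileum. For the interaction of colon against duodenum/jejunum, a pseudocount of 0.1 left 0 called and no filter 2, and for colon against ileum that pseudocount called Hoxc4 in place of Hoxd13. Hox genes called higher in ileum than in duodenum/jejunum numbered 3 in C57BL/6J only and 7 there without mouse 2. Over all genes 761 and 2030 were called higher in these fits. Hox genes called lower in ileum numbered 2 with median-of-ratios scaling and 1 without C57BL/6J mouse 2. They numbered 1 with the smooth muscle score and 1 in C57BL/6J only without mouse 2. In BALB/cJ colon 1 was called higher with the smooth muscle score and 1 with the fibroblast and stroma score, and the number called lower was 2 with no filter and 0 with the fibroblast and stroma score. In BALB/cJ ileum 0 were called higher with scaling, with no filter, without C57BL/6J mouse 2 and with the fibroblast and stroma score, which called 1 lower, Hoxc6, with its sign turned (log2 difference -0.68, limma adjusted p = 0.0286). With the smooth muscle score Hoxb2 turned to -0.47 in colon against ileum and -0.48 against duodenum/jejunum, and Hoxb3 to -0.084 in colon against ileum. The fibroblast and stroma score and the fits of C57BL/6J without mouse 2 were chosen after seeing the data. The cause of these changes was not tested.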
